A study of Mus musculus with 8 samples.

Results

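Biotin-dependent carboxylases and the genes that attach biotin to them or recover it were examined in livers of mice that lack pyruvate carboxylase in hepatocytes. The set held 9 of the 35275 genes in the count table, taken by symbol: Pcx, Acaca, Acacb, Pcca, Pccb, Mccc1, Mccc2, Hlcs and Btd. All 9 passed the filter on low counts, so each was among the 13168 genes tested. RNA sequencing had been done on 4 Pcx L-/- livers and 4 Pcx f/f control livers, which the sample labels call WT, with 1 library per mouse. Every mouse was male, 9 weeks old and fed chow before a 24 h fast. Both genotypes carried a floxed exon 10 of Pcx, derived from a C57BL/6NTac Tm1a allele after Flpe deletion, and only the Pcx L-/- mice carried Albumin-Cre, which acts in hepatocytes. Other liver cells of the Pcx L-/- mice therefore kept an intact gene, and the controls were littermates. The question addressed here is whether the loss of pyruvate carboxylase was accompanied by a shift of its sister carboxylases.

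Biotin-dependent carboxylases carry biotin on a lysine and use it to move a carboxyl group from bicarbonate onto a small acyl or keto acid. Pyruvate carboxylase makes oxaloacetate for gluconeogenesis in the fasted liver, propionyl-CoA carboxylase opens the route from propionyl-CoA to succinyl-CoA, methylcrotonyl-CoA carboxylase acts in leucine breakdown, and the acetyl-CoA carboxylases make malonyl-CoA, the building block of fatty acids and an inhibitor of fatty acid entry into mitochondria. Holocarboxylase synthetase (Hlcs) attaches the biotin to each of them and biotinidase (Btd) frees it again when they are broken down.

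The members that bear biotin are Pcx, Acaca, Acacb, Pcca and Mccc1, whereas Pccb and Mccc2 code for the partner subunits of Pcca and Mccc1. The attachment site is known to lie in a methionine-lysine-methionine stretch, and its codons are shown here because this is the site that the 5 enzymes share. In the reference annotation (GENCODE M21, GRCm38) the letters ATGAANATG, read in frame and kept where the middle codon stands for lysine, occurred 1 time in the coding sequence of each of the 5 genes. The 69 bases around them are given 5′ to 3′ on the coding strand, with the 9 bases of the 3 codons in capitals.
Pcx: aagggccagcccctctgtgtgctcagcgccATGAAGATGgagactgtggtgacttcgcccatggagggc
Acaca: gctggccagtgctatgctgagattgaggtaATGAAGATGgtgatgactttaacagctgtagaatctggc
Acacb: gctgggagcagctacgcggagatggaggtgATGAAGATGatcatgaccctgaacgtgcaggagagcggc
Pcca: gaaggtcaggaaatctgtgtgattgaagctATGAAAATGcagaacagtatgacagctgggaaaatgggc
Mccc1: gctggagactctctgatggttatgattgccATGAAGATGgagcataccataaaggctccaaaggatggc
The lysine codon was number 1145 of 1179 in Pcx, 690 of 724 in Pcca and 677 of 717 in Mccc1, near the end of each of these 3 reading frames. It was number 785 of 2345 in Acaca and 919 of 2448 in Acacb, in the first part of the acetyl-CoA carboxylases. Between pairs of windows the same base stood at 39.1% to 63.8% of positions, highest for Acaca and Acacb and lowest for Pcx and Acacb. The same letters in frame were found in 473 of 21526 genes with a complete coding sequence, or 2.197%, so the match alone does not mark a carboxylase.

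Reads counted on genes came to between 12016242, in control replicate 4, and 20023108, in control replicate 1. Normalized read counts are counts divided by the library total and its TMM factor, which corrects the total for the few genes that take much of it, and brought to a common scale. These factors lay between 0.833 and 0.942 in control libraries. In Pcx L-/- libraries the factor was 0.970 for replicate 1 and 1.16, 1.16 and 1.14 for replicates 2 to 4. The scaling therefore moved every difference: over all genes tested the median log2 difference was -0.01 with TMM factors and 0.28 with library totals alone. Differences are given on the TMM scale, that is, relative to the bulk of genes, and the text says where library totals end a call or turn a direction of a gene it describes. The summed normalized count of 8 hepatocyte markers, Alb among them, was 1789600 to 2133700 in control and 989870 to 1549800 in Pcx L-/- libraries, with 2 of the 8 lower by the test below, 4 by DESeq2. In whole liver, fewer cells of a type and less RNA per cell cannot be told apart. Of the other lists, 1 of 7 macrophage markers (Cd68) rose, 1 of 5 cholangiocyte markers tested (Sox9) fell, and 0 of the 6 endothelial, 6 stellate, 3 lymphocyte, 5 red blood cell and 1 adipocyte markers tested passed the threshold by edgeR or DESeq2. At an unadjusted p under 0.05, 2 endothelial markers passed by either tool and 1 stellate marker by DESeq2. None of 5 muscle markers had enough reads to be tested, and Acta1, Lep and Retn were at 0 in every library. Pcx L-/- replicate 1 stood apart from the other 3 of its genotype. Its summed hepatocyte markers were 1549800, against 989870 to 1139900 in Pcx L-/- replicates 2 to 4. Its summed red blood cell markers were 69307, against 4747 to 16715 in controls and 6244 to 15778 in Pcx L-/- replicates 2 to 4. Pcx L-/- replicate 1 and control replicates 1 and 2 bear mouse numbers in the 500s and the other 5 mice numbers in the 800s. The labels do not say what these series mean, and the part of either in the results below was not tested beyond the fits given beside them.

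Pcx, the targeted gene (ENSMUSG00000024892, chromosome 19, 4510472 to 4621752 of GRCm38), checked the labels. Control replicates 1 to 4 had 19802, 14371, 19513 and 22060 normalized Pcx counts, and Pcx L-/- replicates 1 to 4 had 758, 556, 678 and 732. All 4 Pcx L-/- livers lay far below the lowest control. The mean was 681 ± 89.9 (SD, n = 4) against 18936 ± 3249 (SD, n = 4), or 3.60% of control. On the log2 scale Pcx fell by 4.80 (standard error 0.19, adjusted p = 3.66e-07). All adjusted p-values in the text come from edgeR's quasi-likelihood fit and are corrected by Benjamini-Hochberg over the 13168 genes. Counts are summed over the whole gene, so reads from exons other than the deleted one cannot be separated, and the share from cells without Cre was not measured.

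Of the 8 other members, 4 were lower in Pcx L-/- liver at an adjusted p under 0.05, and none changed by 2-fold or more. Among all genes tested 27.6% passed the threshold, 13.5% lower and 14.1% higher. By edgeR 0 of the 8 were higher, also at an unadjusted p under 0.05, and by DESeq2 0 as well. The members that fell were both subunits of propionyl-CoA carboxylase (Pcca and Pccb), the non-biotin subunit of methylcrotonyl-CoA carboxylase (Mccc2) and holocarboxylase synthetase (Hlcs). Counting Pcx, 5 of the 9 members had normalized counts that did not overlap between genotypes, and 27.6% of all genes tested did so as well. Scaled by library totals alone, the values of Pcca and Hlcs did overlap. The median log2 fold change of the 8 members was -0.41, against -0.01 for all genes tested and -0.53 for the 8 hepatocyte markers. Scaled by library totals alone, 1 of the 8 (Mccc2) stayed past the threshold, where 6.61% of all genes were called lower. Without Pcx L-/- replicate 1, the members called lower were Pcca, Pccb, Mccc1 and Mccc2, with 17.8% of genes called lower. Among the mice numbered in the 800s alone they were Acacb, Pcca, Pccb, Mccc1, Mccc2 and Btd, with 15.8% of genes called lower. The mice numbered in the 500s were 1 Pcx L-/- mouse and 2 controls, and a fit on them, with a single residual degree of freedom, called 0.0505% of all genes lower. It called 0 of the 8, also at an unadjusted p under 0.05 by edgeR, and its values are given below without calls.

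**Figure D1:**
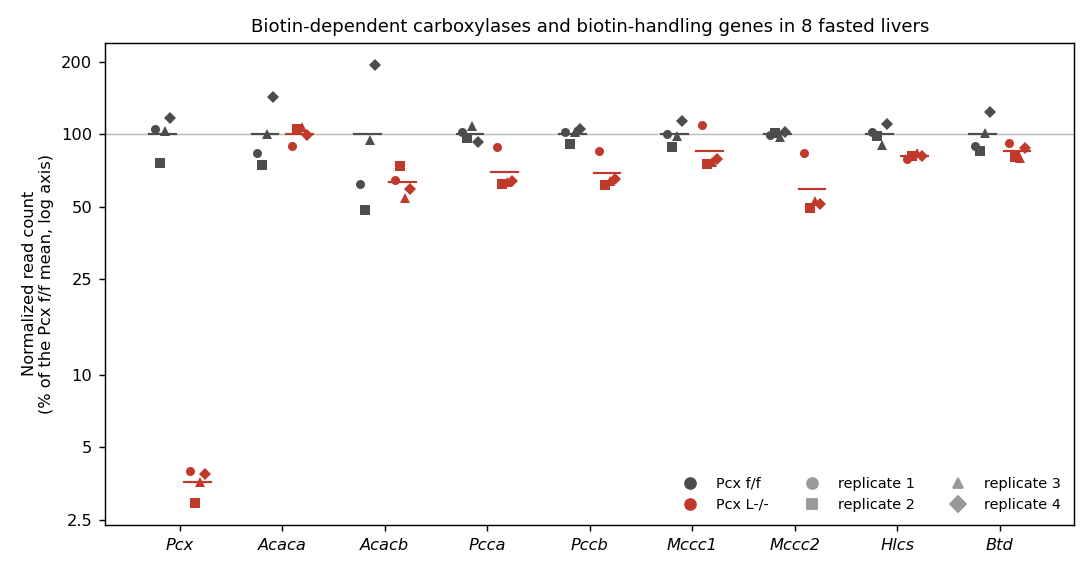
Normalized read count of each member in each library as a percent of the Pcx f/f mean, on a log axis. Grey symbols are the 4 Pcx f/f livers and red symbols the 4 Pcx L-/- livers, the shape gives the replicate and short lines are means. Pcx stands at 3.60% of control, and for Pcca, Pccb, Mccc1 and Mccc2 Pcx L-/- replicate 1 (red circle) lies above the other 3.

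Pcca (ENSMUSG00000041650, chromosome 14, 122534324 to 122891100) codes for the biotin-bearing subunit of propionyl-CoA carboxylase. Its normalized counts were 1377, 1305, 1458 and 1251 in control replicates 1 to 4 and 1189, 837, 856.2 and 861 in Pcx L-/- replicates 1 to 4. On this scale every Pcx L-/- liver was below every control. Replicate 1 was the closest to the controls at 88.2% of their mean, against 63.2% for the mean of the other 3. Pcca fell by 0.53 on the log2 scale (standard error 0.13, adjusted p = 0.0124). With library totals alone its log2 fold change was -0.26 (adjusted p = 0.103) and the call was lost. The genotypes then overlapped, with 26.2 reads per length and total (FPKM) in Pcx L-/- replicate 1 and 23.7 in control replicate 4. Its exons share 241 bases, 4.63% of their length, with Ggact on the opposite strand, and the sources used here do not state whether strand entered the counting.

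Pccb (ENSMUSG00000032527, chromosome 9, 100982032 to 101034898), the partner subunit without biotin, gave 3597, 3212, 3590.0 and 3712 normalized counts in controls and 2990.2, 2159, 2261 and 2291 in Pcx L-/- livers. Again the genotypes did not overlap and Pcx L-/- replicate 1 was the highest of its genotype. Pccb fell by 0.54 on the log2 scale (standard error 0.13, adjusted p = 0.0108), and with library totals alone the value was -0.27 (adjusted p = 0.0660). Within the 800 series the 2 subunits had log2 fold changes of -0.67 for Pcca (adjusted p = 0.00275) and -0.71 for Pccb (adjusted p = 0.00183), and the values within the 500 series were -0.16 and -0.18.

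Mccc1 (ENSMUSG00000027709, chromosome 3, 35959312 to 36000678) codes for the biotin-bearing subunit of methylcrotonyl-CoA carboxylase. The controls had 863, 756, 845 and 969 normalized counts and the Pcx L-/- livers 933, 645, 659 and 674. Replicate 1 of the Pcx L-/- livers fell inside the control range and the other 3 lay below it. The log2 fold change was -0.24 (standard error 0.14, 95% interval -0.54 to 0.06, adjusted p = 0.228). Without replicate 1 it was -0.38 (adjusted p = 0.0171), and with library totals alone the sign turned to 0.04 (adjusted p = 0.817).

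Mccc2 (ENSMUSG00000021646, chromosome 13, 99948530 to 100015639), its partner subunit, showed the largest difference among the members other than Pcx that passed the test. The controls were tight, with 1145, 1167, 1126 and 1178 normalized counts, and the Pcx L-/- livers had 960, 572, 608 and 589. Replicate 1 stood at 83.1% of the control mean and the mean of the other 3 at 51.1%. Mccc2 fell by 0.76 on the log2 scale (standard error 0.16, adjusted p = 0.00621). This was the call among the 8 that held with library totals alone (-0.50, adjusted p = 0.0109). Within the 800 series it was -0.97 (adjusted p = 0.000279) and the value within the 500 series was -0.26.

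The acetyl-CoA carboxylases did not pass the threshold in the comparison of all 8 mice. Acaca (ENSMUSG00000020532, chromosome 11, 84129672 to 84401651), the cytosolic isoform of fatty acid synthesis, had 852, 762, 1021 and 1451 normalized counts in controls and 912, 1075, 1097 and 1010.1 in Pcx L-/- livers. All 4 Pcx L-/- values lay within the control range. The log2 fold change was 0.01 (standard error 0.18, 95% interval -0.38 to 0.40, adjusted p = 0.983), and its sign turned in 8 of the 19 alternatives run. Acacb (ENSMUSG00000042010, chromosome 5, 114146535 to 114250761), the isoform at the mitochondrial surface, gave 711, 557, 1087 and 2228 in controls and 742, 846, 621 and 678 in Pcx L-/- livers. Control replicate 4 lay far above the other controls, and the SD among controls, at 65.9% of their mean, was the widest of any member. The log2 fold change was -0.66 (standard error 0.35, 95% interval -1.42 to 0.11, adjusted p = 0.188). It was -0.12 without control replicate 4 (adjusted p = 0.697) and -1.21 within the 800 series, to which that mouse belongs (adjusted p = 0.00559).

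Hlcs (ENSMUSG00000040820, chromosome 16, 94128882 to 94313571), the enzyme that loads biotin onto the carboxylases, was the member with the fewest normalized counts. The controls had 374, 361, 330.0 and 406 normalized counts and the Pcx L-/- livers 291, 299, 308 and 299. The genotypes did not overlap on this scale, although they did with library totals alone. Here Pcx L-/- replicate 1 was the lowest of its genotype. Hlcs fell by 0.30 on the log2 scale (standard error 0.10, adjusted p = 0.0483). The call stood just inside the threshold and was lost with library totals alone (-0.01, adjusted p = 0.9755), with no filter on low counts (adjusted p = 0.135) and in 7 of the 8 comparisons that leave out 1 mouse. Btd (ENSMUSG00000021900, chromosome 14, 31641028 to 31668579), which releases biotin from degraded carboxylases, had 916, 873, 1038 and 1269 normalized counts in controls and 945, 827, 816 and 893 in Pcx L-/- livers. The ranges overlapped and the log2 fold change was -0.23 (standard error 0.13, 95% interval -0.51 to 0.05, adjusted p = 0.202), which turned to 0.06 with library totals alone (adjusted p = 0.730). Its exons share 108 bases (4.59%) with Hacl1 on the opposite strand.

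**Figure D2:**
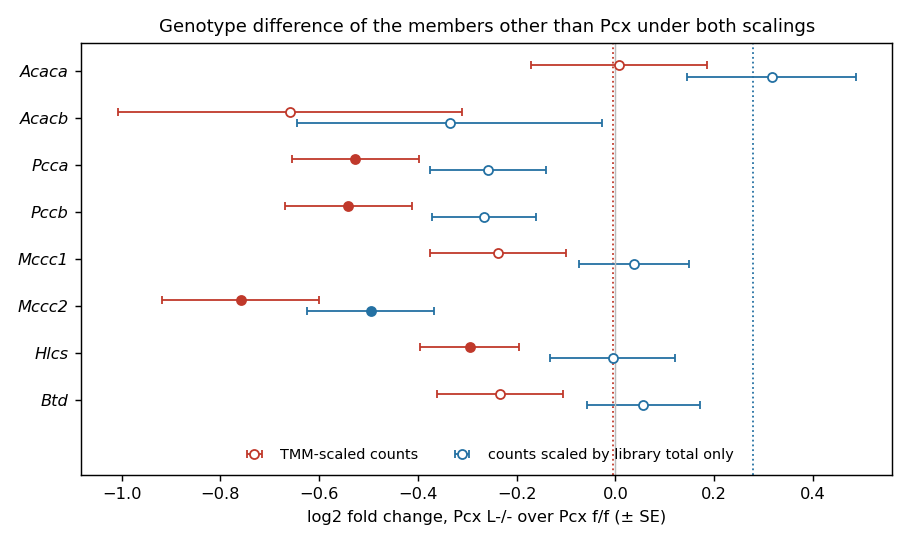
Log2 fold change of Pcx L-/- over Pcx f/f liver for the members other than Pcx, with bars of ± 1 standard error, n = 4 per genotype. Red points use TMM factors and blue points library totals alone, filled points passed an adjusted p under 0.05 and dotted lines mark the median of all genes under each scaling (-0.01 and 0.28). Every member moves to the right with library totals and only Mccc2 stays filled.

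Subunits of 1 enzyme were compared with each other within each library, which removes the scaling, as the ratio of their FPKM values (reads per length of transcript and per total of reads counted). The FPKM ratio of Pcca to Pccb was 0.343, 0.364, 0.363 and 0.302 in controls and 0.356, 0.347, 0.339 and 0.336 in Pcx L-/- livers. The means were 0.343 ± 0.0292 and 0.345 ± 0.00878 (SD, n = 4 each), so the 2 subunits kept the same proportion within the spread of the replicates (exact two-sided permutation test, p = 0.971). The ratio of Mccc1 to Mccc2 was 0.237, 0.204, 0.236 and 0.259 in controls and 0.306, 0.355, 0.341 and 0.359 in Pcx L-/- livers. Here every Pcx L-/- liver was above every control, replicate 1 included. The mean ratio rose from 0.234 ± 0.0226 to 0.340 ± 0.0243 (SD, n = 4 each), with a log2 difference of 0.54 and p = 0.0286, the smallest that an exact permutation test of 4 against 4 allows. Adjusted over the 3 ratios tested it was 0.0857 and did not pass 0.05. For Acaca to Acacb the ratio was 1.11, 1.26, 0.868 and 0.602 in controls and 1.14, 1.17, 1.63 and 1.38 in Pcx L-/- livers. These ranges overlapped, and the log2 difference of 0.51 gave p = 0.114 in the exact permutation test (0.171 adjusted over the 3 ratios).

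In control liver Pcx made up most of the transcripts for biotin-bearing carboxylases, and in Pcx L-/- liver it did not. Pcx made up 85.2%, 82.0%, 83.7% and 83.7% of the summed FPKM of the 5 genes in control replicates 1 to 4, and 19.0%, 17.6%, 21.0% and 22.3% in Pcx L-/- replicates 1 to 4. This share is a description, since Pcx is the deleted gene. The sum of the 5, on the FPKM scale of library totals without TMM factors, fell from 289 ± 36.9 to 53.2 ± 1.11 FPKM (SD, n = 4 each). Without Pcx, the sum of the other 4 was 45.5, 42.1, 49.8 and 50.6 FPKM in controls and 44.4, 43.0, 41.7 and 41.2 in Pcx L-/- livers, with overlapping ranges. No Pcx L-/- liver exceeded the control range of this sum. Divided by the TMM factors, the same sum was 48.8, 44.7, 54.1 and 60.7 in controls and 45.7, 36.9, 36.1 and 36.2 in Pcx L-/- livers. On that scale Pcx L-/- replicates 2 to 4 lay below every control and replicate 1 within their range. Pcca then held the largest share, at 43.7% ± 2.76, against 9.75% ± 1.78 in controls (SD, n = 4 each).

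**Figure D3:**
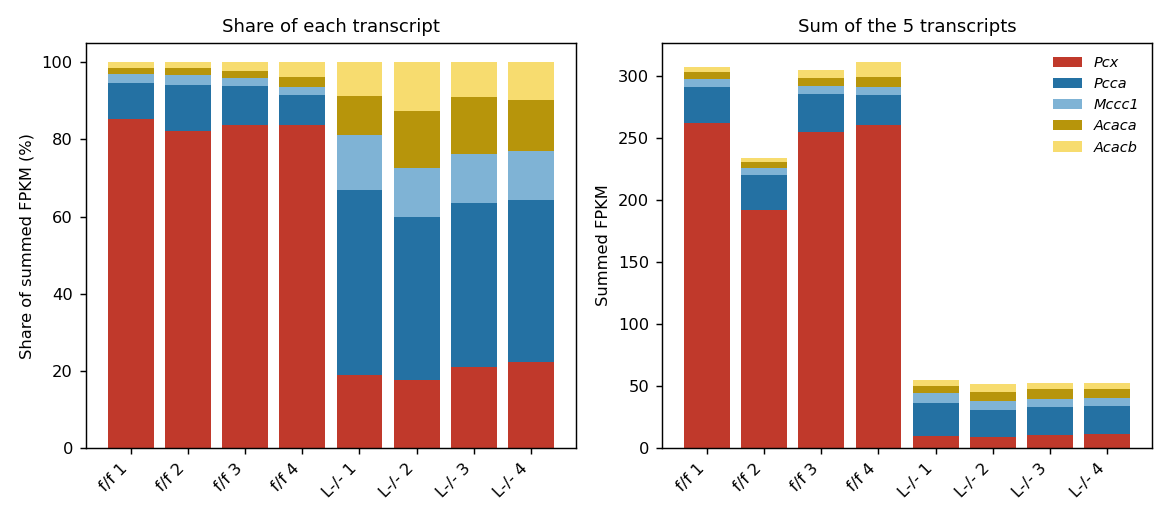
Transcripts of the 5 biotin-bearing carboxylases in each library, as the share of their summed FPKM in percent (left) and as the sum in FPKM (right), with Pcx f/f replicates 1 to 4 followed by Pcx L-/- replicates 1 to 4. Pcx fills 82.0% to 85.2% of each control bar and 17.6% to 22.3% of each Pcx L-/- bar, while the sum without Pcx is between 41.2 and 50.6 FPKM in all 8 libraries. FPKM uses library totals without TMM factors.

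Per length, the order of the members in control liver was Pcx (242 ± 33.7 FPKM), Pccb (81.0 ± 4.05), Mccc2 (29.0 ± 1.39), Pcca (27.8 ± 2.95), Btd (23.4 ± 2.70), Acacb (6.77 ± 4.005), Mccc1 (6.76 ± 0.384), Acaca (5.66 ± 1.34) and Hlcs (3.87 ± 0.229), each as mean FPKM with SD and n = 4. Neighbours whose ranges overlapped were Mccc2 and Pcca, Pcca and Btd, Acacb and Mccc1, and Mccc1 and Acaca. The members thus fell into a top gene (Pcx), a second (Pccb), 3 genes between 20.8 and 30.5 FPKM in single libraries, and 4 genes of which Hlcs had the lowest mean, although in control replicate 2 Acacb, at 3.51 FPKM, was below Hlcs, at 3.95 FPKM. In both carboxylases with separate subunits the transcript of the partner subunit exceeded, per length, that of the biotin-bearing one. For Mccc1 and Mccc2 this depends on the gene lengths used, 6751 and 2123 bases. Not divided by length, their mean normalized counts were 858 and 1154 in controls and 728 and 682 in Pcx L-/- livers. In Pcx L-/- liver Pcx took the fifth place at 10.6 ± 1.12 FPKM (SD, n = 4), below Pccb, Btd, Pcca and Mccc2, and still above Acaca in every library. The FPKM values use library totals without TMM factors, so Hlcs stood at 3.87 ± 0.229 and 3.85 ± 0.392 FPKM in the 2 genotypes although its TMM-scaled counts differed.

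**Figure D4:**
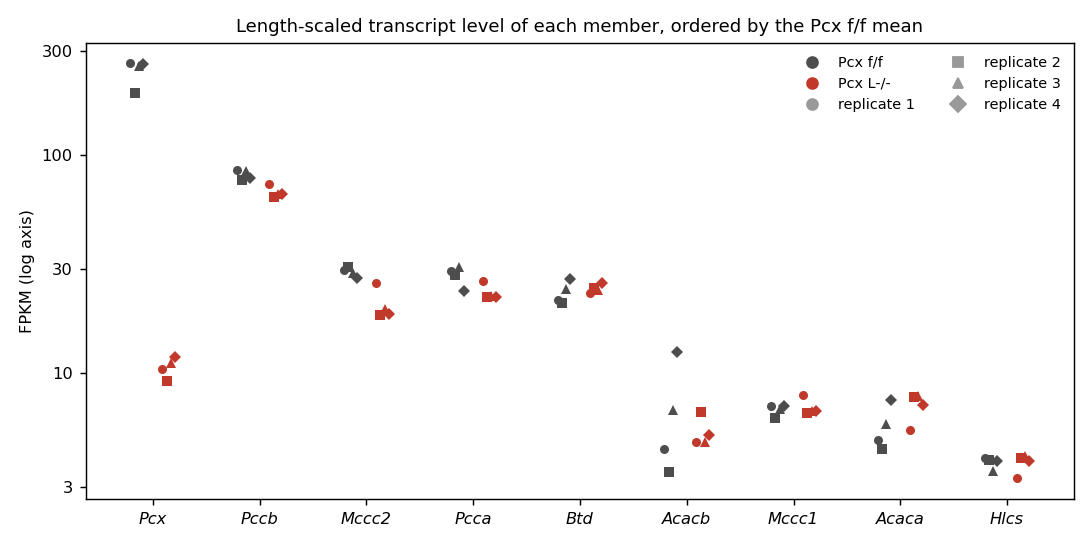
FPKM of each member in each library on a log axis, ordered by the Pcx f/f mean. Grey symbols are Pcx f/f and red symbols Pcx L-/- livers, with the replicate given by shape. Pcx drops from 242 to 10.6 FPKM on average, and control replicate 4 (grey diamond) is the highest Acacb value.

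Around the carboxylases, 78 genes of 7 pathways were tested, of which 13 rose and 22 fell. That is 44.9% of them, against 27.6% of all genes. With library totals alone the split turned to 21 higher and 12 lower, or 42.3% of them, against 36.3% of all genes. Over all genes the calls were 1855 higher and 1777 lower with TMM factors and 3913 and 870 with library totals. The 10 lower calls lost with library totals were those of Slc25a1 (-0.10), Scd1 (-0.29), Prkag2 (-0.21), Tcn2 (-0.19), Ivd (-0.43), Acad8 (-0.40), Aldh6a1 (-0.21), Ehhadh (-0.33), Mdh1 (-0.36) and Mpc2 (-0.20), with their log2 fold changes on that scale. Of the genes named below, 9 lost the call in 4 to 7 of the 8 fits that leave out 1 mouse, each of them without Pcx L-/- replicate 2, 3 or 4 and without 1 to 3 of the controls, and Mcat also without Pcx L-/- replicate 1. Pck1 lost the call without control replicate 3 or Pcx L-/- replicate 2, 3 or 4, and also by limma on log2(FPKM + 1), with a log2 fold change of -0.44. Over those 8 fits the values kept their sign, from -0.98 to -0.59 for Ivd, -0.85 to -0.64 for Pck1, -0.69 to -0.47 for Scd1, -0.46 to -0.31 for Slc25a1, -0.60 to -0.41 for Tcn2, -0.84 to -0.54 for Mdh1, -0.60 to -0.41 for Mpc2, 0.23 to 0.32 for Mcat and 0.29 to 0.40 for Mmadhc. The summed hepatocyte and red blood cell markers given above moved with the genotype and with Pcx L-/- replicate 1, and their part in these counts was not tested.

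Of 4 genes tested for biotin uptake and relatives of biotinidase, 1 rose and 2 fell (median log2 fold change -0.29). The multivitamin transporter Slc5a6, which brings biotin into cells, had 269, 311, 236 and 309 normalized counts in controls and 330, 334, 299 and 350 in Pcx L-/- livers. The ranges overlapped, with a log2 fold change of 0.23 (adjusted p = 0.182), and with library totals alone it passed the threshold at 0.51. Slc16a1, a monocarboxylate transporter for lactate and ketone bodies, rose by 0.84 (adjusted p = 0.00446). The vanins Vnn1 and Vnn3, pantetheinases related to biotinidase in sequence, fell by 1.11 (adjusted p = 0.0119) and 0.81 (adjusted p = 0.00541). The genotypes overlapped for Vnn1, with 1040.5 normalized counts in control replicate 1 and 1152 in Pcx L-/- replicate 1, but not for Vnn3.

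In the malonyl-CoA and fatty acid list 4 of 16 genes rose and 5 fell (median -0.08). Srebf1, a transcription factor of lipogenesis, fell by 1.38 on the log2 scale (adjusted p = 0.00451). Its normalized counts were 1087, 1356, 1051 and 911 in controls and 724, 261, 373 and 340 in Pcx L-/- livers, without overlap. Mlxipl, another transcription factor of the list, had 0.29 (adjusted p = 0.210). With library totals alone Mlxipl passed the threshold as higher (0.57, adjusted p = 0.0256). Fasn, the fatty acid synthase that uses malonyl-CoA, fell by 0.95 (adjusted p = 0.00669) and Acss2, which makes acetyl-CoA from acetate, by 0.89 (adjusted p = 0.00564). Scd1 and Slc25a1 fell by 0.57 and 0.37, both among the calls lost with library totals. The malic enzyme Me1 (0.73), the elongase Elovl6 (0.59), and the mitochondrial malonyl-CoA genes Acsf3 (0.86) and Mcat (0.28) rose, Mcat with an adjusted p of 0.0488. For Me1 the genotypes overlapped, with 1911 normalized counts in Pcx L-/- replicate 1 and 1970 in control replicate 4. Others did not pass the threshold, with log2 fold changes of -0.27 for Acly, which makes acetyl-CoA from citrate, -0.06 for the malonyl-CoA decarboxylase Mlycd, 0.07 for the carboxylase activator Mid1ip1 and -0.15 for Cpt1a, the carnitine transferase that malonyl-CoA inhibits. Each of these 4 signs turned under other settings, those of Acly, Mlycd and Cpt1a with library totals alone and that of Mid1ip1 without control replicate 4.

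AMP-activated protein kinase phosphorylates and inhibits both acetyl-CoA carboxylases. Of its subunits and its upstream complex 1 of 9 genes rose and 1 fell (median 0.06). Prkab2, a regulatory beta subunit, had 45.5, 57.4, 36.5 and 71.3 normalized counts in controls and 66.1, 266, 135 and 175 in Pcx L-/- livers. Pcx L-/- replicate 1 lay inside the control range and the other 3 above it, and the log2 fold change was 1.63 (adjusted p = 0.00909). Prkag2 fell by 0.49 (adjusted p = 0.0116), with the call lost with library totals alone.

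Downstream of propionyl-CoA carboxylase, 2 of 14 genes of the route to succinyl-CoA and of cobalamin handling rose and 3 fell (median -0.18). The enzymes that follow directly, Mcee and Mmut, had log2 fold changes of -0.47 (adjusted p = 0.0703) and -0.21 (adjusted p = 0.238), and that of Mmut turned to 0.06 with library totals alone. Sucla2, a succinyl-CoA ligase subunit, fell by 0.68 (adjusted p = 0.00691), the lysosomal cobalamin transporter Abcd4 by 0.97 (adjusted p = 0.00168) and transcobalamin Tcn2 by 0.46 (adjusted p = 0.0263), the last with the call lost with library totals (-0.19). The cobalamin chaperones Mmachc (0.60) and Mmadhc (0.35) rose. Upstream, in the breakdown of isoleucine and valine and other sources of propionyl-CoA, 6 of 11 genes fell (median -0.48), of which 3 (Acad8, Aldh6a1 and Ehhadh) lost the call with library totals. By edgeR 0 rose, also at an unadjusted p under 0.05, and by DESeq2 0, with 1 at an unadjusted p under 0.05. With library totals alone Acaa1a (0.51, adjusted p = 0.00367) and Hibch (0.44, adjusted p = 0.0120) passed the threshold as higher. Hsd17b10, a mitochondrial dehydrogenase of isoleucine breakdown, fell by 0.99 (adjusted p = 0.0028), Acad8 of valine breakdown by 0.66 (adjusted p = 0.0085) and Acadsb of isoleucine breakdown by 0.65 (adjusted p = 0.0089).

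Around methylcrotonyl-CoA carboxylase, 1 of 11 genes of leucine breakdown rose and 1 fell (median -0.13). Ivd, which makes methylcrotonyl-CoA, the substrate of Mccc1 and Mccc2, had 5505, 4904, 5024 and 4036 normalized counts in controls and 4710, 2417, 2596 and 2424 in Pcx L-/- livers. As for Mccc1, Pcx L-/- replicate 1 lay within the control range and the other 3 below it. Ivd fell by 0.68 (adjusted p = 0.0363) and lost the call with library totals alone. Auh, the hydratase that acts after the carboxylase, had -0.20 (adjusted p = 0.376), which turned to 0.07 with library totals alone. Bckdk, the kinase that switches off branched-chain keto acid dehydrogenase, rose by 0.51 (adjusted p = 0.00882), and its opponent, the phosphatase Ppm1k, had -0.15 (adjusted p = 0.580), which turned to 0.12 with library totals alone.

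Of 13 genes tested for oxaloacetate and other routes into the TCA cycle, 4 rose and 4 fell (median -0.14). Citrate synthase Cs, which consumes oxaloacetate, had 1453, 1517, 1509 and 1741 normalized counts in controls and 2484, 4620.2, 3786 and 4225 in Pcx L-/- livers. All Pcx L-/- livers were above the controls, and the log2 fold change was 1.28 (adjusted p = 0.000999). The mitochondrial enzymes Me2 (1.09), Pck2 (0.96) and Mdh2 (0.52) rose as well. Cytosolic Pck1 fell by 0.72 (adjusted p = 0.0196, up to 0.0779 with 1 mouse left out) and Mdh1 by 0.62 (adjusted p = 0.0242), Glud1, which makes 2-oxoglutarate from glutamate, by 0.78 (adjusted p = 0.0085) and the pyruvate carrier subunit Mpc2 by 0.47 (adjusted p = 0.0259). The calls of Mdh1 and Mpc2 were lost with library totals alone. The other carrier subunit, Mpc1, had 0.44 (adjusted p = 0.0703), the opposite direction to Mpc2. With library totals alone Mpc1 (0.71, adjusted p = 0.0101) and Gpt2 (0.66, adjusted p = 0.00234) passed the threshold as higher.

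**Figure D5:**
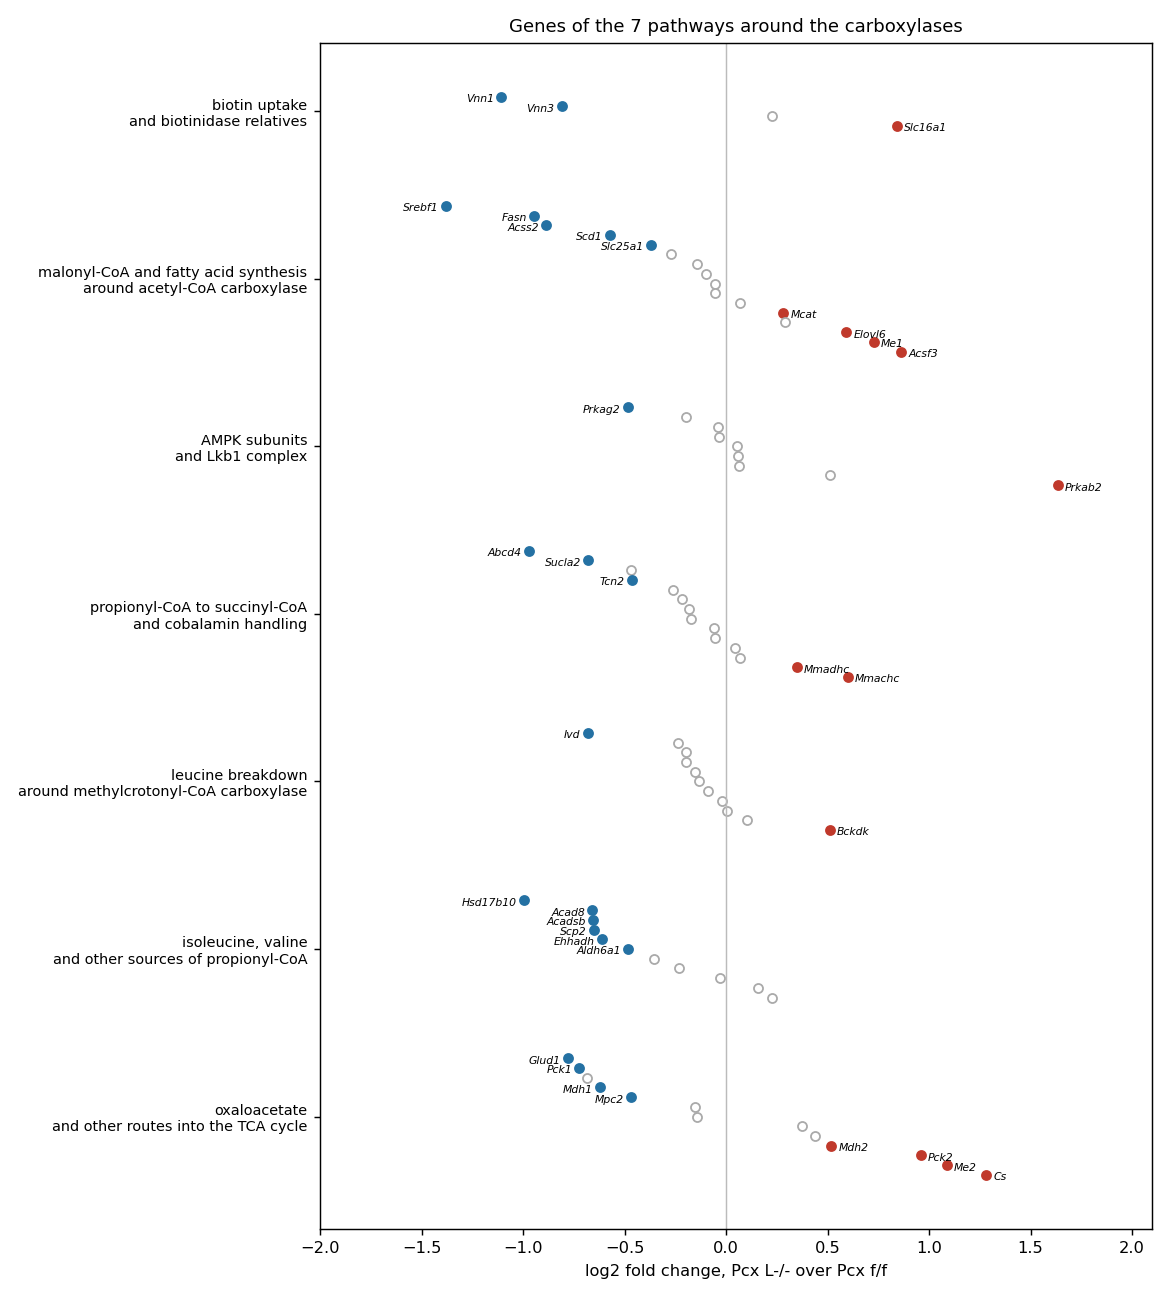
Log2 fold change of Pcx L-/- over Pcx f/f liver for the 78 genes tested in 7 pathways around the carboxylases, 1 point per gene, n = 4 per genotype and TMM factors. Red and blue points passed an adjusted p under 0.05 (13 higher and 22 lower) and are named, open points did not. The list of isoleucine, valine and other propionyl-CoA sources has 6 points on the left and none on the right that passed.

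The genes whose normalized counts followed those of Pcx most closely across the 8 libraries were Manba, Gna12 and Cyp2c67, with Pearson correlations of 0.989, 0.981 and 0.980 on the log2 scale. These are descriptions, since all 8 libraries share the split by genotype that sets the Pcx level. Cyp2c67, of a family of near-identical genes whose reads counting could split, fell by 1.67 and Gna12, a G protein alpha subunit, by 0.73. The lysosomal mannosidase Manba fell by 0.39, from between 384 and 401 normalized counts in controls to between 293 and 313 in Pcx L-/- livers, with the call lost with library totals alone. Among the members the correlation with Pcx was 0.913 for Pccb, 0.889 for Mccc2, 0.888 for Hlcs and 0.873 for Pcca. It was 0.622 for Btd, 0.620 for Mccc1, 0.431 for Acacb and -0.04 for Acaca.

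On chromosome 19, 49 tested genes lay within 500 kb of Pcx, of which 14 rose and 4 fell, or 36.7%, against 27.6% of all genes tested. Their median log2 fold change was 0.02. The nearest that passed was 2010003K11Rik, 11.9 kb before Pcx (1.27, adjusted p = 0.00379). Farther out, the membrane traffic gene Yif1a rose by 0.78 (adjusted p = 0.000625), from between 913 and 996 to between 1585 and 1740.0 normalized counts, without overlap. The DNA polymerase subunit Pold4 rose by 1.09 (adjusted p = 0.00163). Of the glutathione transferases of the pi class, near-identical genes whose reads may be split uncertainly, Gstp3 rose by 2.31 (adjusted p = 0.000159) and Gstp1 fell by 1.19 (adjusted p = 0.00585). The others that rose were Clcf1, Rhod, Syt12, Ccdc87, Dpp3, B4gat1, Brms1, Rin1, Tmem151a and Klc2, with log2 fold changes from 0.29 to 2.95, and among the others that fell were Tmem134 (-0.50) and Ccs (-0.51), both with the call lost with library totals (-0.24 and -0.25). With 1 mouse left out, 7 of the genes named here lost the call in 2 to 8 of 8 fits, namely B4gat1, Ccs, Dpp3, Klc2, Rhod, Rin1 and Tmem134. Among all the flanking genes named, Ccdc87, Tmem151a and Rin1 had at most 39.7 normalized counts in any library, Ccdc87 with 0 to 2.15 in controls.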

How the data were processed

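RNA of 8 livers had been extracted with TRIzol and RNeasy columns and sequenced by a company. The submitters' processing notes name STAR 2.5, HTSeq 0.6.1, DESeq2 and mm10. The authors deposited read counts per Ensembl gene and FPKM values. Of the 142384 FPKM values above 0, 100% equal count divided by library total and 1 length per gene within 1e-06. That length was derived from the same counts and FPKM values, so only its constancy across libraries was checked. A gene with a single value above 0 passes by construction. Genes were named through GENCODE M21 (34490 of 35275 matched). The counts were scaled by TMM and tested with genotype as the only term by the quasi-likelihood F test of edgeR 4.0.16 (R 4.3.3), on genes kept by filterByExpr (minimum count 10, minimum total 15), with Benjamini-Hochberg adjustment. Standard errors are approximate, from the F statistic, with 6 residual degrees of freedom and a biological coefficient of variation of 0.181. Both count tools were tested on simulated libraries of this comparison, in which every changed gene moved 2-fold, up or down in equal numbers. No scaling difference between genotypes was simulated. No member other than Pcx changed by 2-fold, so the rates below do not describe changes as small as theirs. Of 196 genes given a change among 13021, edgeR called 76% and wrongly called 12 others, and of 200 among 13168, DESeq2 1.42.0 called 79% and wrongly called 33 others.

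The members, lists and tests were chosen with earlier results of these data known. Named were the members, 19 fixed pathway genes, at most 3 further genes per list and direction with the smallest p, the 3 genes most like Pcx, and flanking genes past the threshold; some genes under this rule are not reported here. A few further genes named only to say which marker, list member, partner or overlapping gene is meant were chosen after their values were seen. Alternatives were other scalings, no filter, DESeq2, limma 3.58.1 on log2(FPKM + 1) and log2(FPKM + 0.1), a replicate block, the mouse number series as a covariate, library size without Pcx and each mouse left out. Fits within each number series and the pool divided by TMM factors were added after the data were seen. Pairs of replicates differed by more than sampling noise, with a chi-square per gene of 12 to 78.05, where sampling alone gives about 1. Their Spearman correlations were 0.976 to 0.993. Counting errors limit genes with few reads. Protein sequences were not used here.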

Additional observations from a re-analysis of the deposited data

Results flagged for a closer look

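Among 148 groups of 4 values examined for a library far from the other 3, 15 had one. Chance gives about 1 in 20 for independent groups. These groups share the same 8 libraries and are not independent, so the 15 cannot be set against that rate. Of the 15, 11 concerned Pcx L-/- replicate 1. In each it lay above the other 3 of its genotype, on the side of the controls for the genes that fell. For the members, its normalized count was 1189 for Pcca (others 837 to 861), 2990.2 for Pccb (others 2159 to 2291), 933 for Mccc1 (others 645 to 674) and 960 for Mccc2 (others 572 to 608). For the pathway genes it was 2277 for Mlycd, 189 for Mid1ip1, 4710 for Ivd, 2139 for Sucla2, 1807 for Tcn2, 2134 for Acadsb and 8197 for Mdh1. Of all genes called lower, 77.8% had their highest Pcx L-/- value in this library, against 34.5% of all genes tested. These counts are on the TMM scale, where the factor of this library was 0.970, against 1.14 to 1.16 in replicates 2 to 4. In FPKM, without these factors, it was still highest of its genotype for the members and pathway genes just named, but nearer to the others. For Pccb the FPKM value was 73.6, against 63.8 to 66.3. The hepatocyte and red blood cell markers and the mouse number series of this library are given above. Their part and that of the scaling were not tested.

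Control replicate 4 stood apart for Mcee (390 normalized counts, others 602 to 633), Acadsb (2727, others 2426 to 2439) and Tmem134 (1079, others 1320 to 1345). Pcx L-/- replicate 3 stood apart for Tmem151a (35.0, others 17.9 to 20.8).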

How the results depend on the processing

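Scaling ended several calls and turned several signs, and the cause of the changes below was not tested. Every value is a log2 fold change unless it is a count. With library size only, limma on log2(FPKM + 1) and limma on log2(FPKM + 0.1), members other than Pcx past the threshold came to 1, 2 and 2, pathway genes higher to 21, 21 and 21, and pathway genes lower to 12, 11 and 11. In the same order, the values were -0.26, -0.25 and -0.25 for Pcca and -0.0058, -0.0070 and -0.0093 for Hlcs, all short of the threshold, and Pccb was short of it with library size only (-0.27). Signs turned to 0.037, 0.030 and 0.034 for Mccc1 and 0.056, 0.059 and 0.061 for Btd. They also turned for Acly (0.019, 0.028 and 0.029), Mlycd (0.22, 0.21 and 0.22), Cpt1a (0.14, 0.15 and 0.15), Mmut (0.056, 0.059 and 0.060), Auh (0.065, 0.077 and 0.084) and Ppm1k (0.12, 0.13 and 0.13). Acaca turned to -0.0051 with DESeq2 size factors, -0.0046 with the DESeq2 Wald test and -0.076 with the mouse number series as a covariate. Hlcs lost its call with no filter (-0.28) and with that covariate (-0.30).

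Within the 500 series, with 1 Pcx L-/- mouse against 2 controls, 32 genes passed by edgeR, 0 of them members other than Pcx and 0 in the pathway lists (0 and 14 at an unadjusted p under 0.05). A fit this small passes few genes, so a missing call in it says nothing of a change. There Pcca (-0.16), Pccb (-0.18), Mccc2 (-0.26) and Hlcs (-0.33) were not past the threshold, and Acacb (0.23), Mccc1 (0.21), Btd (0.088), Mlycd (0.33), Cpt1a (0.37), Mmut (0.061), Auh (0.059), Ppm1k (0.20) and Rin1 (-0.23) turned sign. Within the 800 series Acacb (-1.21), Mccc1 (-0.46) and Btd (-0.45) passed, Hlcs did not (-0.28), and Acaca (-0.22) and Mid1ip1 (-0.048) turned sign.

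Leaving out each mouse in turn gave 2109 to 4602 genes past the threshold, the fewest without Pcx L-/- replicate 4 and 2295 without replicate 2. Pathway genes lower came to 12 to 29, with 12 without Pcx L-/- replicate 2, 3 or 4 and 13 without control replicate 3. Flanking genes came to 10 to 18, with 10 or 11 without control replicate 1 or Pcx L-/- replicate 2, 3 or 4. Values ran from -0.11 to 0.22 for Acaca, -0.38 to -0.18 for Mccc1, -0.35 to -0.25 for Hlcs, -0.16 to 0.18 for Mid1ip1 and -0.27 to 0.034 for Cpt1a, and from -0.049 to 0.041 for the ratio of Pcca to Pccb. For Mccc1 to Mccc2 the log2 difference was 0.48 to 0.59, where 7 mice cannot give an exact p under 0.0571. Pcx kept its direction and call in all 19 alternatives (-4.99 to -4.38), Mccc2 in 18, Pccb in 17 and Pcca in 15, the 500 series being among the exceptions for these 3. The Pcx share of the biotin-bearing pool was 81.3% and 16.6% with counts not divided by length, and the summed FPKM without Pcx was 52.1 in controls and 38.8 in Pcx L-/- livers after division by TMM factors, against 47.0 and 42.6. With the median in place of the mean, 7 of 9 members kept their place in the order of control levels and 9 of 9 in that of Pcx L-/- levels.

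The labels give both genotypes replicates 1 to 4, but same-numbered libraries correlated at -0.127 to 0.0958 in their deviations from the group means, so the numbers were not taken to pair the mice. With a replicate block 2975 genes passed, Hlcs lost its call (-0.29), and the exact paired test of Mccc1 to Mccc2 gave 0.54 with p = 0.125, the smallest that 4 pairs allow. Depth limits the genes with few reads, such as Ccdc87.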
